A study of Oryctolagus cuniculus with 9 samples.

Results

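The genes examined are those of protein processing in the endoplasmic reticulum (ER), the pathway of that name in KEGG, a curated collection of pathways. They were taken as every row whose deposited KEGG annotation contains the pathway's name, which gave 192 of the 20525 genes in the table. Levels had been measured by RNA sequencing of polyadenylated RNA from rabbit (Oryctolagus cuniculus) vocal folds, the paired tissue bands of the larynx that vibrate in speech. The 9 libraries fall into 3 groups of 3: injured folds given the SOT hydrogel and taken 1 week after injury, injured folds left without treatment and taken at the same time, and normal folds that were not injured. SOT is the name the labels give a hydrogel that the study's title calls antioxidant and adhesive. The labels used here give no composition, and no age, sex or strain of the rabbits. The groups are called SOT, untreated and normal below, and the labels do not say whether replicates came from separate animals, so p-values measure the spread between these libraries.

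Secreted and membrane proteins enter the ER through the SEC61 channel, are held by chaperones such as BiP, receive N-linked glycans from the oligosaccharyltransferase complex and have disulfide bonds made by protein disulfide isomerases. Lectins and glycan-trimming enzymes then retain a protein, pass it to COPII vesicles for export, or send it back to the cytosol, where ubiquitin and the proteasome remove it in ER-associated degradation (ERAD). The sensors IRE1 (ERN1), PERK (EIF2AK3) and ATF6 respond to unfolded protein in the lumen, and fibroblasts, plasma cells and gland cells depend strongly on the pathway because they secrete large amounts of protein.

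The annotation is broader than that biology. Of the 192 members, 174 were placed in 10 lists by role and 18 in none. All 18 share a KEGG orthology entry with a listed member, and they include the chromatin ATPase gene ATAD2 and PHLDB1, PHLDB2 and PHLDB3. There were 24 members named only by a locus number, of which 2 received a symbol, SEC24B and NPLOC4, from a RefSeq gene table of another assembly. P4HB, a main disulfide isomerase, was not analysed here. The row named CALR, for the lectin chaperone calreticulin, held 0, 0.0561 and 0 normalised counts (CPM, scaled to library size by TMM) in the SOT libraries, 0, 0 and 0 CPM in the untreated libraries and 0, 0.594 and 0.153 CPM in the normal libraries. These values are too low to compare. A second member described as calreticulin, LOC103350187, spans the CALR row on the other strand of chromosome 13. It averaged 0.0989 FPKM (a level scaled for transcript length) in SOT, 0.0449 FPKM in untreated and 0.157 FPKM in normal folds. How reads over these 2 overlapping rows were assigned is not stated, so the level of calreticulin is uncertain. Filtering on low counts left 187 members among 17344 tested genes, and the members not tested were CALR, CRYAA, DNAJC5B, SEL1L2 and ANKRD33.

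Total counts lay between 44755718 and 50338111 per library, and members took between 2.11% and 2.43% of the counts in SOT, 2.25% and 2.45% in untreated and 1.99% and 2.31% in normal libraries. The labels name the sampled cells as vocal cord histiocytes, but skeletal muscle, cartilage, epithelial and gland markers were all detected, so the libraries are described as vocal fold tissue. In such bulk samples, fewer cells of a type and less RNA per cell cannot be told apart. The 7 measured fibroblast markers summed to 19264 to 39859 CPM in SOT, 42290 to 46230 CPM in untreated and 9289 to 12771 CPM in normal libraries. The 8 macrophage markers summed to 464 to 831, 1291 to 1525 and 236 to 280 CPM in the same order of groups, and the 6 neutrophil markers to 1764 to 4657, 4700 to 6917 and 587 to 2039 CPM. Muscle markers (5 genes) summed to 1004 to 5304 CPM in SOT, 514 to 4347 CPM in untreated and 14662 to 19872 CPM in normal libraries. In untreated against normal folds, 8 of 8 macrophage, 5 of 6 neutrophil, 5 of 7 fibroblast and 3 of 5 endothelial markers rose, and 5 of 5 muscle and 6 of 6 cartilage markers fell. Of 8 airway gland markers 1 rose and 2 fell, of 6 stratified epithelium markers 1 rose, and of 8 plasma and B cell markers 1 fell. No marker gene was at 0 in all libraries. Most of the fibroblast sums was held by COL1A1, COL1A2 and COL3A1, with 11688, 13125 and 14772 CPM on average in untreated folds. The fibroblast markers PDGFRA and PDGFRB did not pass in untreated against normal folds (edgeR, adjusted p = 0.352 and 0.0954). The part of these cell types in the values below was not tested.

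On the FPKM scale, which divides by transcript length and so allows genes to be compared, the median member stood at 21.1 FPKM in SOT, 19.6 FPKM in untreated and 20.1 FPKM in normal folds. HSPA8, the constitutive cytosolic HSP70, was the most abundant member in each group, with 582 ± 90.2 FPKM in SOT, 589.5 ± 63.4 FPKM in untreated and 628 ± 139 FPKM in normal folds (mean ± SD, n = 3 each). Among the proteins of the ER itself, PDIA3 led with 338 ± 43.7 FPKM in SOT, 396 ± 33.3 FPKM in untreated and 273 ± 33.2 FPKM in normal folds. SSR4, of the translocon-associated complex, had 247 ± 29.7, 245 ± 3.38 and 217 ± 14.1 FPKM in SOT, untreated and normal folds. HSP90B1 (GRP94) stood at 245 ± 42.5, 327 ± 27.9 and 212 ± 41.1 FPKM in that order, and HSPA5 (BiP) at 205 ± 43.6, 254 ± 22.9 and 198 ± 48.9 FPKM. In normal folds the mean ± SD intervals of PDIA3 and HSP90B1 overlapped, and so did those of HSP90B1 and HSPA5. Members varied less between replicates than tested genes in general: the median coefficient of variation was 12.9% against 21.4% in SOT, 7.01% against 12.2% in untreated and 11.8% against 16.9% in normal folds. The tested genes were not matched to the members for level, so the part of level in this difference was not tested.

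The first comparison, untreated folds against normal folds, shows how the pathway differed 1 week after injury. Of the 187 tested members, 42 rose and 19 fell (edgeR's quasi-likelihood test, Benjamini-Hochberg adjusted p under 0.05), and 126 did not pass. Over all tested genes, 17.7% rose and 15.1% fell. Medians stood highest in 6 of the 10 role lists: the median log2 fold change was 0.59 for 9 disulfide enzymes, 0.44 for 8 members of the oligosaccharyltransferase list, 0.40 for 8 lumen chaperones, 0.40 for 20 glycan-trimming enzymes and lectins, 0.22 for 14 COPII genes and 0.21 for 15 translocation genes. It was 0.10 for 28 stress sensors and apoptosis genes, -0.01 for 20 cytosolic ubiquitin genes, -0.05 for 26 membrane ERAD genes and -0.18 for 22 cytosolic heat shock genes, against -0.02 over all tested genes. The 6 lists given first, disulfide enzymes to translocation, kept a positive median under the other scalings and tools tried. Of tested genes in general 32.8% changed, and 61 members did, a count that became 36 without untreated replicate 2, 31 without untreated replicate 3, and 40 when normal replicate 2 was left out. At an unadjusted p under 0.05 there were 78 members, against 44.7% of tested genes. All untreated libraries lay above all normal ones for 67 members and below them for 30, against 28% and 27.1% of tested genes. Of the 61, 29 passed whichever of the 9 libraries was left out. Where a rise or fall in untreated folds was lost without some library, the highest left-out p is given with it below.

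**Figure D1:**
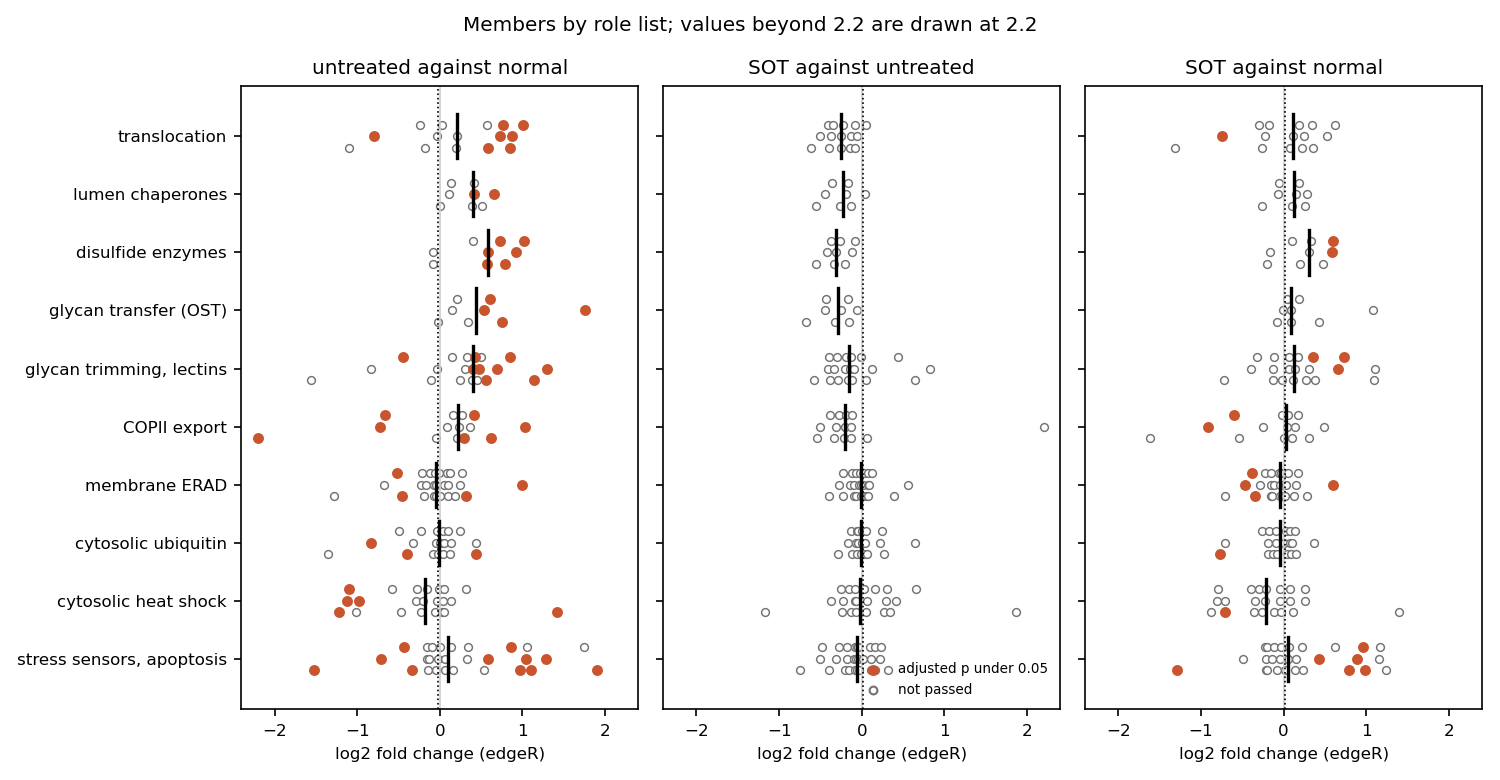
Log2 fold change (edgeR) of every tested member of the 10 role lists, with 1 panel per comparison and 1 row per list. Filled points passed at adjusted p under 0.05, open points did not, black bars are list medians and the dotted line is the median of all tested genes. In the left panel the bars of the upper 6 lists stand right of the dotted line, from 0.21 to 0.59. In the middle panel they stand left of it, and no point is filled.

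The plot of fold changes by role list shows these medians with each member behind them, and the single values past its scale belong to the locus LOC103346233 described with the COPII genes. The disulfide enzymes had the highest list median. PDIA6, an isomerase that also binds the sensor IRE1, had 446, 425 and 298 CPM in SOT folds, 523, 629.7 and 562 CPM in untreated folds and 329.7, 274 and 241 CPM in normal folds. All untreated libraries lay above all normal libraries, and the lowest SOT library, replicate 3, lay within the normal range (log2 fold change 1.02 with SE 0.19, adjusted p = 0.00534 for untreated against normal). ERP29, a lumen protein with a thioredoxin-like fold on chromosome 21 at 7950508 to 7958998 (build OryCun2.0), had 141, 169.9 and 135 CPM in SOT folds, 166, 179.6 and 169 CPM in untreated folds and 95.7, 105 and 96.4 CPM in normal folds. Both injured groups lay above normal without overlap, and untreated folds rose (log2 fold change 0.79 with SE 0.11, adjusted p = 0.00201). ERO1A, the oxidase that recharges the isomerases, rose in untreated folds to 158 ± 4.82 CPM, against 83.4 ± 8.17 CPM in normal folds (SD, n = 3 each; log2 fold change 0.92 with SE 0.16, adjusted p = 0.00439). Its relative ERO1B stood at 10.4 ± 1.02 and 11 ± 1.72 CPM in the same groups and did not pass (log2 fold change -0.08 with SE 0.19, adjusted p = 0.77).

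PDIA3, which acts on glycoproteins with the calnexin cycle, had 555, 619 and 478 CPM in SOT folds, 649, 776 and 709.9 CPM in untreated folds and 555, 447 and 437 CPM in normal folds. It rose in untreated folds (log2 fold change 0.57 with SE 0.15, adjusted p = 0.0235), but not without untreated replicate 2, where adjusted p was 0.0846. PDIA4 rose likewise (log2 fold change 0.72 with SE 0.18, adjusted p = 0.0176, and adjusted p = 0.065 without untreated replicate 2), and so did TXNDC5 (log2 fold change 0.59 with SE 0.19, adjusted p = 0.0439, and adjusted p = 0.122 without untreated replicate 3). In all, 6 of the 9 tested disulfide enzymes (66.7%) rose and none fell, against 17.7% and 15.1% of all tested genes. ERO1B and the others not listed here did not pass.

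Of the 8 tested members of the oligosaccharyltransferase list, 4 (50%) rose and none fell, against 17.7% and 15.1% of all tested genes. TUSC3, a subunit with oxidoreductase activity on chromosome 2 at 70246938 to 70392088, had 27.5, 34.9 and 12.4 CPM in SOT folds, 31.5, 47.5 and 40.7 CPM in untreated folds and 14, 12 and 9.41 CPM in normal folds. Untreated libraries were all above normal ones, while SOT replicate 3 fell within the normal range (log2 fold change 1.76 with SE 0.36, adjusted p = 0.00796 for untreated against normal). STT3A, the catalytic subunit that glycosylates chains during translocation, rose to 202 ± 15.8 CPM in untreated folds, against 133 ± 7.42 CPM in normal folds (log2 fold change 0.61 with SE 0.12, adjusted p = 0.00699). STT3B, the catalytic subunit that can also act after translocation, had 212 ± 1.94 and 216 ± 35.3 CPM in those groups and did not pass (log2 fold change -0.03 with SE 0.13, adjusted p = 0.896). The structural subunit DDOST rose (log2 fold change 0.75 with SE 0.14, adjusted p = 0.00544). RPN2 rose as well (log2 fold change 0.54 with SE 0.17, adjusted p = 0.0448), though adjusted p = 0.129 without untreated replicate 2, while RPN1 did not pass (log2 fold change 0.34 with SE 0.13, adjusted p = 0.082).

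Of 15 tested translocation genes, 6 rose and 1 fell, which is 40% and 6.67%, against 17.7% and 15.1% of all tested genes. SSR1, the alpha subunit of the translocon-associated protein complex, had 115, 119 and 76.2 CPM in SOT folds, 140.3, 178 and 155 CPM in untreated folds and 95.8, 85.0 and 81.1 CPM in normal folds. The untreated libraries were the highest 3, and SOT replicate 3 was below every normal library (log2 fold change 0.86 with SE 0.18, adjusted p = 0.00899 for untreated against normal). The beta subunit gene SSR2 also rose (log2 fold change 0.59 with SE 0.14, adjusted p = 0.0154, adjusted p = 0.0614 without untreated replicate 3), whereas SSR3 and SSR4 of the same complex did not pass, with log2 fold changes of -0.17 (SE 0.13) and 0.21 (SE 0.11). RRBP1, a ribosome-binding protein of rough ER, rose to 496 ± 21.1 CPM in untreated folds, against 270.1 ± 45.2 CPM in normal folds (log2 fold change 0.88 with SE 0.18, adjusted p = 0.00835). CKAP4, which spaces ER sheets, rose by 0.73 on the log2 scale (adjusted p = 0.0168 by edgeR, and adjusted p = 0.0595 without normal replicate 1), and the translocation-associated protein TRAM2 by 1.01 (adjusted p = 0.0051). In the channel itself, SEC61B rose (log2 fold change 0.76 with SE 0.17, adjusted p = 0.0104), and SEC61A2 fell to 18.6 ± 3.55 CPM in untreated folds, against 32.4 ± 1.45 CPM in normal folds (log2 fold change -0.80 with SE 0.16, adjusted p = 0.00749). The main channel gene SEC61A1 had 281 ± 25.4 and 189 ± 45.9 CPM in those groups and did not pass (adjusted p = 0.0581).

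The lumen chaperones had a positive log2 fold change in 8 of 8, and in 7 of 8 with library totals as the only scaling or in DESeq2. Only 2 passed, both higher, which is 25%, against 17.7% of all tested genes that rose. HSPA5, which encodes BiP, the main ER HSP70 and a standard marker of the unfolded protein response, had 707, 566 and 425 CPM in SOT folds, 694, 839.7 and 772 CPM in untreated folds and 765, 519.9 and 480.0 CPM in normal folds. Normal replicate 1 was higher than untreated replicate 1, the groups overlapped and the test did not pass (log2 fold change 0.39 with SE 0.24, adjusted p = 0.237). HSP90B1 had 890.1, 753 and 583 CPM in SOT folds, 988, 1184 and 1084 CPM in untreated folds and 855, 631 and 585 CPM in normal folds. It rose in untreated folds (log2 fold change 0.65 with SE 0.21, adjusted p = 0.0408), but passed in only 3 of the 9 left-out fits (adjusted p = 0.124 without untreated replicate 2). DNAJC1 rose (log2 fold change 0.41 with SE 0.13, adjusted p = 0.0435), and passed in 1 of the 9 (adjusted p = 0.135 without untreated replicate 2). HYOU1, the ER HSP110, did not pass (log2 fold change 0.51 with SE 0.20, adjusted p = 0.0855), and DNAJC3, a BiP co-chaperone, had a log2 fold change of 0.00 (SE 0.20).

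**Figure D2:**
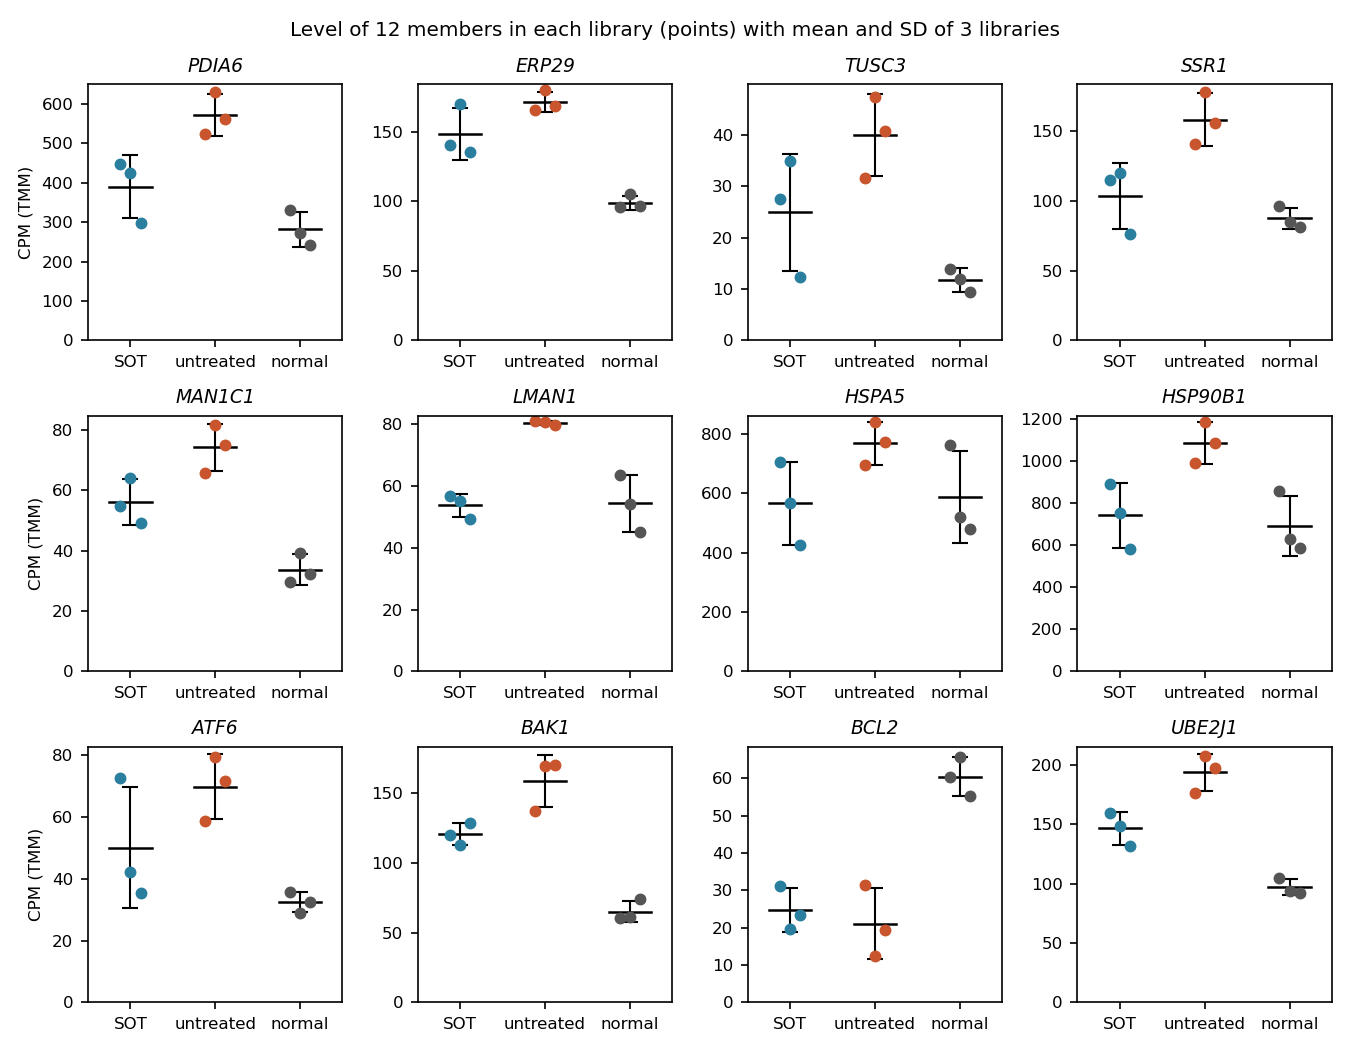
Normalised counts (CPM, linear axes from 0) of 12 members in SOT, untreated and normal libraries. Points are libraries, and bars are the mean and SD of 3. The untreated points lie above the normal points in 10 of the 12 panels, overlap them for HSPA5 and lie below them for BCL2. SOT points lie below all untreated points for PDIA6, SSR1, MAN1C1, LMAN1, HSP90B1, BAK1 and UBE2J1.

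The plot of 12 members by library shows how the SOT libraries spread. SOT replicate 3 is the lowest of its group for every member drawn except BAK1 and BCL2. Among glycan-trimming enzymes and lectins, 8 of 20 tested genes rose and 1 fell in untreated folds. These are 40% and 5%, against 17.7% and 15.1% of all tested genes. MAN1C1, an alpha-mannosidase on chromosome 13 at 127947065 to 128084672, had 54.9, 64.2 and 49.2 CPM in SOT folds, 65.9, 81.7 and 75.1 CPM in untreated folds and 29.6, 39.4 and 32.3 CPM in normal folds. All SOT and all untreated libraries lay above all normal ones (log2 fold change 1.14 with SE 0.15, adjusted p = 0.00162 for untreated against normal). EDEM1 and EDEM2, mannosidase-like proteins that mark glycoproteins for ERAD, rose by 0.69 and 0.84 on the log2 scale (adjusted p = 0.00879 and 0.00426 by edgeR). The glucosidase genes MOGS (log2 fold change 0.48 with SE 0.10, adjusted p = 0.00885) and GANAB (log2 fold change 0.40 with SE 0.11, adjusted p = 0.0231, adjusted p = 0.0812 without untreated replicate 2) and the ERAD lectin OS9 (log2 fold change 0.43 with SE 0.09, adjusted p = 0.00963) rose by less. LOC100351389, described as F-box only protein 6, a family known in other mammals to bind high-mannose glycans, had 44.1, 36.4 and 71.2 CPM in SOT folds, 65.2, 47.5 and 62.4 CPM in untreated folds and 15.3, 23.7 and 32.4 CPM in normal folds. It rose in untreated folds (log2 fold change 1.29 with SE 0.32, adjusted p = 0.0174), though adjusted p = 0.0588 without untreated replicate 3. LMAN1, a cargo receptor for glycoproteins, rose to 80.4 ± 0.623 CPM in untreated folds, against 54.3 ± 9.14 CPM in normal folds (log2 fold change 0.56 with SE 0.13, adjusted p = 0.012). NGLY1, the cytosolic enzyme that strips glycans from exported chains, fell (log2 fold change -0.45 with SE 0.11, adjusted p = 0.0187, adjusted p = 0.0808 without untreated replicate 3). Calnexin (CANX) had 468 ± 26.8 CPM in untreated and 480.1 ± 56.5 CPM in normal folds and did not pass (log2 fold change -0.04 with SE 0.12, adjusted p = 0.848).

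Of 14 tested COPII coat genes, 4 rose and 3 fell, which is 28.6% and 21.4%, against 17.7% and 15.1% of all tested genes. SEC31A, an outer coat subunit, rose to 249 ± 13.8 CPM in untreated folds, against 162 ± 11.5 CPM in normal folds (log2 fold change 0.62 with SE 0.14, adjusted p = 0.0121, adjusted p = 0.0516 without normal replicate 3). Its relative SEC31B had 19.4, 21.1 and 24.2 CPM in SOT folds, 26.5, 22.3 and 25.1 CPM in untreated folds and 36.9, 48.4 and 36.6 CPM in normal folds. Both injured groups lay below normal without overlap, and SEC31B fell in untreated folds (log2 fold change -0.72 with SE 0.15, adjusted p = 0.00838). SEC24D, a cargo adaptor of the inner coat, rose (log2 fold change 1.03 with SE 0.29, adjusted p = 0.0263, adjusted p = 0.0879 without normal replicate 3), as did SEC24B (log2 fold change 0.30 with SE 0.08, adjusted p = 0.0272, adjusted p = 0.105 without untreated replicate 3) and SEC13 (log2 fold change 0.41 with SE 0.11, adjusted p = 0.026, adjusted p = 0.0882 without untreated replicate 2). SAR1B, one of 2 GTPases that start coat assembly, fell to 68.5 ± 9.23 CPM in untreated folds, against 109 ± 18.9 CPM in normal folds (log2 fold change -0.67 with SE 0.14, adjusted p = 0.0101). SAR1A had 215 ± 6.85 and 179 ± 8.67 CPM and did not pass (log2 fold change 0.26 with SE 0.13, adjusted p = 0.165). LOC103346233, a second locus described as Sec24B, had 0.245, 0.0748 and 0.242 CPM in SOT folds, 0, 0 and 0 CPM in untreated folds and 0.438, 0.594 and 0.699 CPM in normal folds. All untreated libraries were at 0, so it was at least 9.15-fold lower there than in normal folds, against a floor of 3 counts per library.

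**Figure D3:**
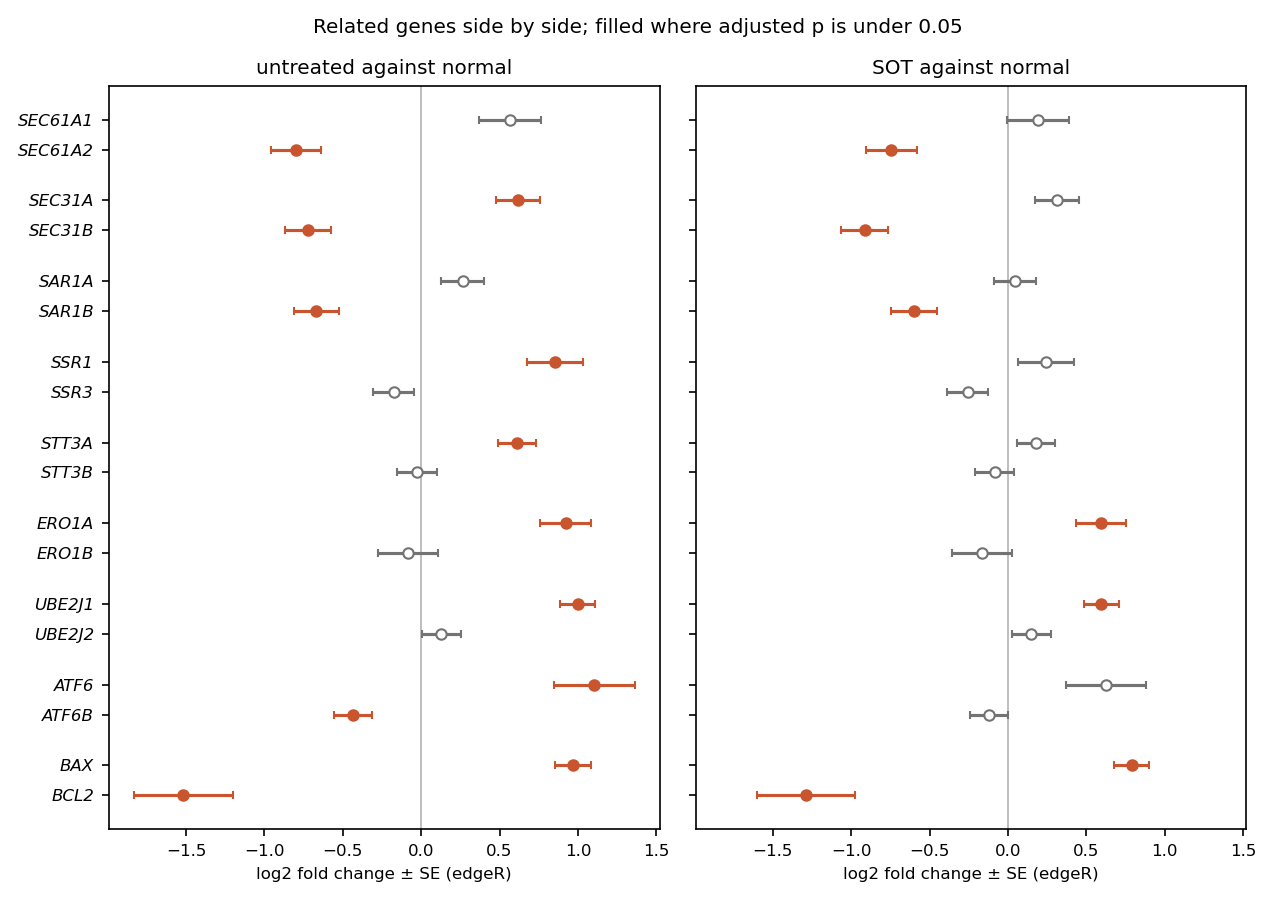
Log2 fold change with its SE (edgeR) for 9 sets of related members, for untreated against normal on the left and SOT against normal on the right. Filled points passed at adjusted p under 0.05. On the left SEC31A is at 0.62 and SEC31B at -0.72, ATF6 at 1.11 and ATF6B at -0.44, and BAX at 0.97 and BCL2 at -1.52.

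Related genes therefore had unlike values in several places, which the plot of related members sets side by side. The differences within these sets were not tested. They were chosen after their values were seen.

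Few genes of the membrane ERAD list, which is not limited to membrane proteins, changed: 2 of 26 rose and 2 fell. That is 7.69% each way, against 17.7% and 15.1% of all tested genes. UBE2J1, a ubiquitin-conjugating enzyme anchored in the ER membrane on chromosome 12 at 76156787 to 76182976, had 159, 148 and 132 CPM in SOT folds, 176, 207 and 197 CPM in untreated folds and 105, 94.0 and 92.1 CPM in normal folds. The 3 groups did not overlap, with untreated highest and normal lowest (log2 fold change 1.00 with SE 0.11, adjusted p = 0.000942 for untreated against normal). UBE2J2, the other membrane-anchored enzyme of this kind, did not pass (log2 fold change 0.13 with SE 0.12, adjusted p = 0.454). SEL1L, the adaptor of the HRD1 ligase, rose (log2 fold change 0.32 with SE 0.10, adjusted p = 0.0457), passing in 2 of the 9 left-out fits (adjusted p = 0.138 without untreated replicate 3). HRD1 itself (SYVN1) and HERPUD1, its partner, had log2 fold changes of -0.01 (SE 0.14) and -0.05 (SE 0.15). UBE2G1, a ubiquitin-conjugating enzyme, fell (log2 fold change -0.52 with SE 0.14, adjusted p = 0.0204, adjusted p = 0.0772 without untreated replicate 2). DERL3, a derlin, had 2.78, 2.21 and 4.94 CPM in SOT folds, 3.03, 1.27 and 2.41 CPM in untreated folds and 7.15, 7.32 and 1.81 CPM in normal folds. Normal replicate 3 was low, the groups overlapped and the gene did not pass (adjusted p = 0.12). The 8 plasma and B cell markers summed to 3446 and 2977 CPM in normal replicates 1 and 2 and to 1438 CPM in normal replicate 3, and their part in the DERL3 values was not tested.

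In the cytosol, 1 of 20 tested ubiquitin genes rose and 2 fell, which is 5% and 10%. Over all tested genes the shares were 17.7% and 15.1%, to be set beside this list and the heat shock genes below. UBE2D4, a ubiquitin-conjugating enzyme, fell to 40.2 ± 3.54 CPM in untreated folds, against 71.5 ± 2.66 CPM in normal folds (log2 fold change -0.83 with SE 0.14, adjusted p = 0.00346). SKP1, of the SCF ligases, fell (log2 fold change -0.40 with SE 0.12, adjusted p = 0.0313, adjusted p = 0.113 without untreated replicate 2), and UBE4B rose (log2 fold change 0.44 with SE 0.14, adjusted p = 0.0419, adjusted p = 0.131 without normal replicate 1). Of 22 heat shock genes, 1 rose and 4 fell, which is 4.55% and 18.2%. DNAJB2, a ubiquitin-binding co-chaperone, fell (log2 fold change -0.98 with SE 0.14, adjusted p = 0.00233). HSPA6, a stress-inducible HSP70 in humans, rose at a low level, with 1.66, 1.46 and 1.02 CPM in SOT folds, 3.16, 3.08 and 3.08 CPM in untreated folds and 1.43, 1.34 and 0.699 CPM in normal folds (log2 fold change 1.42 with SE 0.34, adjusted p = 0.0147 for untreated against normal, adjusted p = 0.0505 without untreated replicate 3). The other 3 that fell are loci described as HSPA1B or like it, within 1 stretch of chromosome 12, where LOC100353783 and LOC100354037 overlap. Near-identical copies can share reads, so their separate values are uncertain. Without untreated replicate 3, adjusted p was 0.056 for LOC100353783 and 0.0631 for LOC100354037 (edgeR). LOC100354435 had 71.5, 32.3 and 29.9 CPM in SOT folds, 28.2, 42.3 and 34.7 CPM in untreated folds and 94.3, 78.5 and 73.1 CPM in normal folds (log2 fold change -1.23 with SE 0.33, adjusted p = 0.0235 for untreated against normal, adjusted p = 0.0793 without untreated replicate 3). Normal libraries were all above untreated ones, and SOT replicate 1 stood near the normal range. CRYAB, a small heat shock protein abundant in muscle, had 509, 53.6 and 169 CPM in SOT folds, 283, 45.6 and 135 CPM in untreated folds and 311, 294 and 329 CPM in normal folds. It ranged from 45.6 to 509 CPM over the injured libraries and did not pass (adjusted p = 0.366). The muscle marker sums stood lowest in the same replicate 2 libraries, at 1004 CPM in SOT and 514 CPM in untreated. They were 5304 and 5160 CPM in SOT replicates 1 and 3, where CRYAB had 509 and 169 CPM. In normal libraries the muscle sums were 14662 to 19872 CPM, while CRYAB there was below SOT replicate 1. The part of muscle in the CRYAB values was not tested.

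Of the 28 sensors, effectors and apoptosis genes, 7 rose and 4 fell, which is 25% and 14.3%. The shares over all tested genes were 17.7% and 15.1%. The sensor genes ERN1 and EIF2AK3 did not pass, with log2 fold changes of 0.34 (SE 0.20) and 0.01 (SE 0.10). XBP1, the target spliced by IRE1, had 372 ± 18 CPM in untreated and 333 ± 89.9 CPM in normal folds (log2 fold change 0.16 with SE 0.20, adjusted p = 0.579), and its splicing cannot be read from gene counts. ATF4, the factor translated under PERK signalling, and its target DDIT3 (CHOP) had log2 fold changes of 0.33 (SE 0.15, adjusted p = 0.129 by edgeR) and -0.16 (SE 0.22, adjusted p = 0.615). The third sensor did pass. ATF6, on chromosome 13 at 31094124 to 31311844, had 72.5, 42.3 and 35.5 CPM in SOT folds, 58.6, 79.3 and 71.5 CPM in untreated folds and 35.7, 29.0 and 32.6 CPM in normal folds. Untreated libraries were all above normal ones, while SOT ranged across both (log2 fold change 1.11 with SE 0.26, adjusted p = 0.0129 for untreated against normal). Its relative ATF6B fell (log2 fold change -0.44 with SE 0.12, adjusted p = 0.0274, adjusted p = 0.0975 without untreated replicate 3).

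The mitochondrial pore-forming apoptosis genes had the smallest p-values of the list. BAK1, on chromosome 12 at 23915172 to 23922139, had 120.1, 113 and 128 CPM in SOT folds, 137, 169 and 169.9 CPM in untreated folds and 60.3, 60.9 and 73.7 CPM in normal folds. No library of one group fell in the range of another (log2 fold change 1.29 with SE 0.13, adjusted p = 0.000615 for untreated against normal). BAX rose to 38.3 ± 1.69 CPM in untreated folds, against 19.6 ± 1.24 CPM in normal folds (log2 fold change 0.97 with SE 0.11, adjusted p = 0.00106). BCL2, which holds BAX and BAK1 in check, had 31.0, 19.6 and 23.5 CPM in SOT folds, 31.5, 12.5 and 19.3 CPM in untreated folds and 60.2, 65.8 and 55.2 CPM in normal folds. Every injured library was below every normal one, and BCL2 fell in untreated folds (log2 fold change -1.52 with SE 0.32, adjusted p = 0.00858). NFE2L2, which encodes the antioxidant factor NRF2 and is a substrate of PERK, rose (log2 fold change 0.58 with SE 0.12, adjusted p = 0.0079). EIF2AK2, the kinase PKR, rose (log2 fold change 0.86 with SE 0.24, adjusted p = 0.0281, adjusted p = 0.0838 without normal replicate 2), and so did LOC103350677, described as caspase-12 (log2 fold change 1.04 with SE 0.26, adjusted p = 0.017, adjusted p = 0.0584 without normal replicate 2). WFS1, the ER membrane protein wolframin, fell (log2 fold change -0.72 with SE 0.20, adjusted p = 0.0252, adjusted p = 0.0928 without untreated replicate 2), and so did the JNK kinase gene MAPK9 (log2 fold change -0.33 with SE 0.09, adjusted p = 0.0252, adjusted p = 0.0824 without untreated replicate 2).

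PPP1R15A (GADD34), the phosphatase subunit that reverses PERK signalling, is represented by 2 rows side by side on 1 unplaced scaffold, PPP1R15A and LOC103346344, which is described as a partial copy. PPP1R15A had 108, 19.5 and 29.0 CPM in SOT folds, 116, 36.6 and 70.7 CPM in untreated folds and 17.3, 23.7 and 25.4 CPM in normal folds. Replicate 1 was the highest in both injured groups, and the gene did not pass (log2 fold change 1.75 with SE 0.65, adjusted p = 0.0717). LOC103346344 had 133, 31.4 and 42.5 CPM in SOT folds, 167, 66.7 and 113 CPM in untreated folds and 23.0, 30.3 and 39.5 CPM in normal folds. It rose in untreated folds (log2 fold change 1.9 with SE 0.57, adjusted p = 0.0335) but not without normal replicate 1 (adjusted p = 0.106), and the division of reads between the 2 rows is uncertain.

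Of the 17 tested members in no role list, ATAD2 rose to 48.0 ± 1.15 CPM in untreated folds, against 24.3 ± 7.21 CPM in normal folds (log2 fold change 0.98 with SE 0.19, adjusted p = 0.00593). MBLAC2 fell (log2 fold change -0.71 with SE 0.17, adjusted p = 0.0144, adjusted p = 0.0656 without untreated replicate 3). LOC100357982 stood at 126 CPM in normal replicate 2 and between 21.3 and 28.3 CPM in every other library.

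Summed per role list, FPKM showed how much transcript each step held. The disulfide enzymes summed to 1030.3, 1139.6 and 913 FPKM in SOT, 1122, 1294 and 1232 FPKM in untreated and 856, 745 and 673 FPKM in normal libraries. The glycan-trimming list summed to 538, 548 and 563 FPKM in SOT, 559, 589 and 578 FPKM in untreated and 477, 445 and 456 FPKM in normal libraries. The oligosaccharyltransferase list summed to 603, 670.5 and 543 FPKM in SOT, 640.4, 705 and 668 FPKM in untreated and 568, 499 and 466 FPKM in normal libraries. Untreated libraries lay above every normal library in each of these sums, and SOT libraries lay above every normal library in the first and second. The membrane ERAD list summed to 785, 751 and 739.7 FPKM in SOT and 699, 732 and 726 FPKM in untreated libraries. In normal libraries it summed to 765, 710.1 and 692 FPKM, a range that overlapped both injured groups. Every SOT library lay above every untreated one in this sum. On the FPKM scale the median log2 fold change of all tested genes for SOT against untreated was 0.13. The sum over stress sensors and apoptosis genes was 1095, 921 and 875 FPKM in SOT, 1026, 983 and 1042 FPKM in untreated and 829, 738 and 795 FPKM in normal libraries, with both injured groups above normal.

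**Figure D4:**
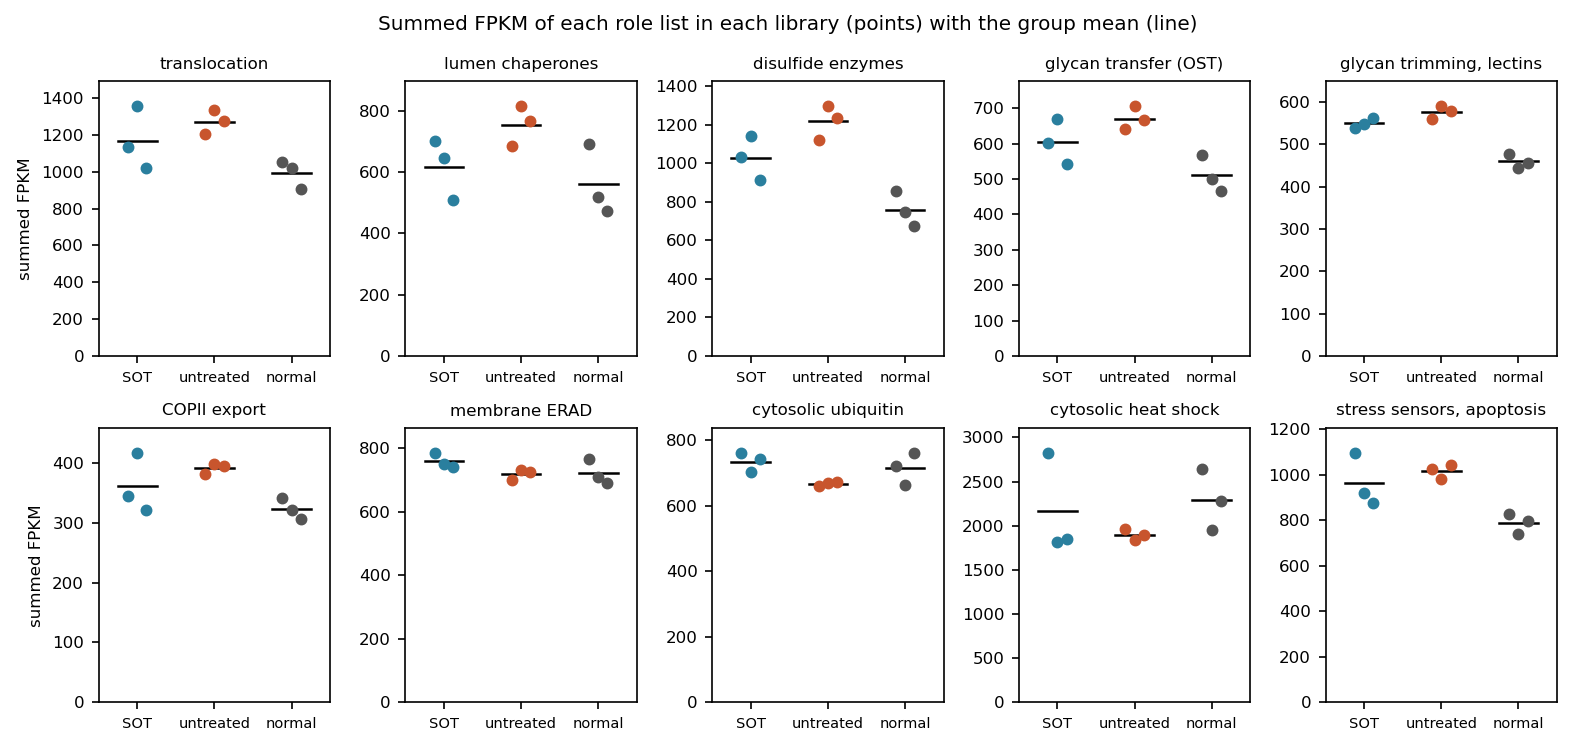
Summed FPKM (linear axes from 0) of the 10 role lists in SOT, untreated and normal libraries. Points are libraries and lines are group means of 3. Disulfide enzymes average 1028 FPKM in SOT, 1216 FPKM in untreated and 758 FPKM in normal folds, while membrane ERAD averages 759, 719 and 722 FPKM in that order.

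The plot of summed FPKM also shows the cytosolic heat shock list, where SOT replicate 1 reached 2823 FPKM and the other SOT libraries 1816 and 1852 FPKM. HSPA8, CRYAB, HSP90AB1 and HSP90AA1 are the most abundant members of that list, and CRYAB was highest in the same SOT library.

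SOT folds were compared with untreated folds to ask what the hydrogel changed in injured tissue. No member passed (0 of 187, edgeR), where 0.0115% of all tested genes did. At an unadjusted p under 0.05 there were 25 members, against 12.6% of all tested genes. DESeq2 called 4 members, LMAN1, UBE2J1, HSPA6 and LOC103346233, where it called 221 higher and 424 lower over all genes, and limma called 0 members. Values leaned to the lower side: 127 of 187 members had a log2 fold change below 0, against 48.4% of all tested genes, and the median was -0.10, against 0.01. With library totals as the only scaling, 73 members were below 0, and with limma on log2(FPKM + 0.1) 79 were. Those settings moved the median of all genes by 0.16 and 0.13, and the member median stayed below that of all genes, by 0.11 and 0.09. There were 35 members whose SOT libraries all lay below the untreated ones, against 12.4% of all tested genes, and 9 that all lay above, against 7.4%. No member fell or rose by the adjusted test, so these counts describe a lean in the values and not calls.

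This comparison shares its untreated libraries with the one above. The SOT against untreated median log2 fold change was -0.31 for disulfide enzymes (9 of 9 below 0), -0.29 for the oligosaccharyltransferase list (8 of 8), -0.25 for translocation (14 of 15), -0.23 for lumen chaperones (7 of 8), -0.21 for COPII (12 of 14) and -0.15 for glycan trimming (15 of 20). With library totals only, 7, 6, 9, 6, 9 and 10 of these were below 0. Membrane ERAD had a median of -0.01. LMAN1 had 56.6, 55.1 and 49.4 CPM in SOT folds, 80.9, 80.5 and 79.7 CPM in untreated folds and 63.5, 54.2 and 45.2 CPM in normal folds. All SOT libraries lay below all untreated ones, and the SOT and normal ranges overlapped (SOT against untreated: log2 fold change -0.58 with SE 0.13, adjusted p = 0.167; DESeq2 gave adjusted p = 0.00855). STT3A had 149.7, 169 and 131 CPM in SOT and 191, 220.4 and 196 CPM in untreated folds (log2 fold change -0.43 with SE 0.12, adjusted p = 0.23). UBE2J1 was lower without overlap (log2 fold change -0.40 with SE 0.11, adjusted p = 0.232; DESeq2 gave adjusted p = 0.0467), and so was HSPA6 (log2 fold change -1.17 with SE 0.34, adjusted p = 0.238; DESeq2 gave adjusted p = 0.0249).

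In the other direction, members with the smallest p-values included LOC103346233, ATF6B and SKP1. LOC103346233 was at least 2.97-fold higher in SOT than in untreated folds, where it was at 0, but both levels are under 1 CPM. ATF6B had 56.6, 57.5 and 75 CPM in SOT and 51.8, 50.9 and 49.3 CPM in untreated folds (log2 fold change 0.32 with SE 0.12, adjusted p = 0.339), and SKP1 238, 232 and 278 and 221, 196 and 203 CPM (log2 fold change 0.27 with SE 0.12, adjusted p = 0.383). HSPA5, the BiP gene, was not different by the test (log2 fold change -0.44 with SE 0.24, adjusted p = 0.482), nor were XBP1 (log2 fold change -0.20 with SE 0.20, adjusted p = 0.712) and DDIT3 (log2 fold change -0.04 with SE 0.22, adjusted p = 0.948). A p that misses the threshold does not show that these levels are equal. Leaving out SOT replicate 1 gave 1 call, ANKRD33B, at a log2 fold change of -2.64 (adjusted p = 0.0284, edgeR).

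SOT folds were also compared with normal folds, which asks what still differed in treated tissue. Here 12 members rose and 9 fell, while 9.01% of all tested genes rose and 7.67% fell. For 28 members all SOT libraries lay above all normal ones and for 20 below, against 17.8% and 18.6% of tested genes, and 46 members had an unadjusted p under 0.05, against 33.7% of tested genes. The balance of calls moved with the scaling, to 19 higher and 6 lower with library totals only. With limma on log2(FPKM + 0.1) it moved to 20 and 7. Over all tested genes, calls went from 1563 higher and 1331 lower to 2140 and 1141 with library totals only. With limma on log2(FPKM + 0.1) they went to 2310 and 1345. The count of 21 was 9 without SOT replicate 2, 10 without untreated replicate 3, 6 without normal replicate 1 and 11 without normal replicate 2. This comparison shares its normal libraries with that of untreated folds. Those called in every left-out fit were BAK1, BAX, UBE2J1, SEC31B and UBE2D4.

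The apoptosis and stress list held 6 of the 21 members, 5 higher and 1 lower. Of its 28 tested members this is 17.9% and 3.57%, against 9.01% and 7.67% of all tested genes. BAK1 rose in SOT folds to 120.5 ± 7.76 CPM, against 65.0 ± 7.60 CPM in normal folds (log2 fold change 0.89 with SE 0.13, adjusted p = 0.00623). BAX rose to 33.8 ± 3.79 CPM in SOT folds, against 19.6 ± 1.24 CPM in normal folds (log2 fold change 0.79 with SE 0.11, adjusted p = 0.00642). BCL2 fell (log2 fold change -1.29 with SE 0.31, adjusted p = 0.0284, adjusted p = 0.088 without SOT replicate 2). EIF2AK2 (log2 fold change 0.96 with SE 0.24, adjusted p = 0.0318, adjusted p = 0.0977 without normal replicate 2), LOC103350677 (log2 fold change 0.98 with SE 0.26, adjusted p = 0.036, adjusted p = 0.108 without normal replicate 2) and NFE2L2 (log2 fold change 0.43 with SE 0.12, adjusted p = 0.0422, adjusted p = 0.127 without normal replicate 1) rose. ATF6 did not pass (log2 fold change 0.63 with SE 0.25, adjusted p = 0.123).

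Of 9 disulfide enzymes, ERP29 (log2 fold change 0.59 with SE 0.11, adjusted p = 0.0128, adjusted p = 0.0524 without normal replicate 1) and ERO1A (log2 fold change 0.59 with SE 0.16, adjusted p = 0.0401, adjusted p = 0.121 without normal replicate 2) rose, while PDIA6 had 390.0 ± 80.0 CPM in SOT and 281 ± 44.8 CPM in normal folds and did not pass (log2 fold change 0.47 with SE 0.19, adjusted p = 0.118). Of 20 glycan-trimming genes, MAN1C1 (log2 fold change 0.73 with SE 0.15, adjusted p = 0.0164, adjusted p = 0.0607 without normal replicate 1), EDEM2 (log2 fold change 0.65 with SE 0.15, adjusted p = 0.0217, adjusted p = 0.0733 without normal replicate 2) and MOGS (log2 fold change 0.36 with SE 0.10, adjusted p = 0.0444, adjusted p = 0.114 without SOT replicate 2) rose. No member of the oligosaccharyltransferase or lumen chaperone lists passed, and TUSC3 gave adjusted p = 0.07 (edgeR). UBE2J1, the ERAD conjugating enzyme, rose in every left-out fit (log2 fold change 0.60 with SE 0.11, adjusted p = 0.0129).

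Members that fell in SOT folds included COPII and channel genes. SEC31B fell to 21.6 ± 2.41 CPM in SOT folds, against 40.6 ± 6.73 CPM in normal folds (log2 fold change -0.91 with SE 0.15, adjusted p = 0.00881). SEC61A2 (log2 fold change -0.74 with SE 0.16, adjusted p = 0.0192, adjusted p = 0.0665 without normal replicate 1) and SAR1B (log2 fold change -0.60 with SE 0.14, adjusted p = 0.0277, adjusted p = 0.0781 without normal replicate 1) fell too. UBE2D4 fell in every left-out fit (log2 fold change -0.77 with SE 0.14, adjusted p = 0.0108). The ERAD ligase gene MARCH6 fell (log2 fold change -0.34 with SE 0.10, adjusted p = 0.0464, adjusted p = 0.144 without SOT replicate 2). DNAJB2 (log2 fold change -0.72 with SE 0.14, adjusted p = 0.0154, adjusted p = 0.0569 without normal replicate 1) and UBE2G1 (log2 fold change -0.46 with SE 0.14, adjusted p = 0.0495, adjusted p = 0.116 without normal replicate 1) fell as well. ATAD2, of no role list, was the remaining member that rose (log2 fold change 0.70 with SE 0.19, adjusted p = 0.0368, adjusted p = 0.118 without normal replicate 1).

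Genes of the same biology that are not members of the KEGG pathway were also measured. Of 27 measured targets of the unfolded protein response and parts of the secretory route, 8 rose and none fell in untreated against normal folds, and 2 rose and 1 fell in SOT against normal folds. Of all tested genes 17.7% rose and 15.1% fell in untreated against normal folds, and 9.01% rose and 7.67% fell in SOT against normal folds. The 8 that rose in untreated folds were KDELR1, KDELR2 and KDELR3, the receptors that return ER residents, with PDIA5, HSPA13, SESN2, TRIB3 and CEBPB. PDIA5, a disulfide isomerase outside the KEGG list, averaged 51.9 CPM in SOT, 89.1 CPM in untreated and 35.1 CPM in normal folds (log2 fold change 1.34, adjusted p = 0.003 by edgeR for untreated against normal). Among those that did not pass are MANF, DNAJB9 and SDF2L1, with edgeR adjusted p = 0.159, 0.658 and 0.424. Of 16 genes for folding and modifying collagen in the ER, 12 rose and 1 fell in untreated folds, and 5 rose and none fell in SOT folds against normal. P4HA3, a collagen prolyl hydroxylase subunit, averaged 42.9 CPM in SOT, 45.9 CPM in untreated and 3.45 CPM in normal folds (log2 fold change 3.73, adjusted p = 0.000857 for untreated against normal and 3.64, 0.00321 for SOT against normal, edgeR).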

How the data were processed

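The authors deposited 1 table with whole-number counts and FPKM values per gene for 9 libraries of vocal fold RNA. Per the submitters' processing notes, the tools were cutadapt 1.9, HISAT2 2.0.4, StringTie 1.3.4d and edgeR, on the build OryCun2.0, and positions are those of the deposited table. The sources used here do not say how reads over near-identical or overlapping genes were assigned, or whether strand was used.

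Tests used the deposited counts in edgeR 4.0.16 under R 4.3.3 (filterByExpr, TMM scaling, quasi-likelihood test, 1 mean per group over all 9 libraries, Benjamini-Hochberg adjustment over 17344 genes). CPM are TMM-normalised and FPKM are the authors' values. On data simulated for untreated against normal folds, 100 genes were changed 2-fold and 100 changed 4-fold, with 17069 genes in the test. The edgeR test called 21% of the first and 74% of the second. In the real comparison 32.8% of tested genes were called, so these shares do not give the recovery there. Depth gives a floor of 3 counts, 0.0557 to 0.0692 CPM, which covers counting error only. DESeq2 1.42.0 and limma 3.58.1, on log2(FPKM + 0.1) and log2(FPKM + 1), were alternatives, with other scalings, no filter, only the 2 groups compared, a replicate block and each library left out.

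The members, role lists and marker lists were chosen with earlier results of these data known. Role lists were completed for 25 members from their descriptions, and 3 members were moved between lists. Named members are, per list and comparison against normal, up to 4 that passed without overlap, by size of change, otherwise the smallest p, with the 4 smallest p each way for SOT against untreated and a fixed set of known pathway genes. Other genes named were chosen after their values were seen. Some members that passed a test are counted but not reported here by name.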

Additional observations from a re-analysis of the deposited data

How the results depend on the processing

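The counts of members changed in untreated against normal folds stayed within 1.5 times under the other scalings, tools and filters. With each library left out they ranged from 31 to 66 changed, 24 to 47 higher and 7 to 20 lower. For SOT against normal, DESeq2 gave 33 changed with 15 lower. The fit of only the 2 groups gave 11 changed with 6 higher and 5 lower. The higher count was 19 with library totals only and 20 with limma at either pseudocount. Over all genes the main fit gave 1563 higher and 1331 lower, DESeq2 2417 and 2301, and the 2 groups 692 and 886. The higher count over all genes was 2140 with library totals only and 2310 and 2220 with limma. Leaving out a library gave 6 to 24 changed, 4 to 18 higher and 2 to 9 lower. For SOT against untreated, DESeq2 gave 4 changed, 1 higher and 3 lower, where it called 221 higher and 424 lower over all genes. Leaving out a library gave 0 to 1 changed, 0 higher and 0 to 1 lower. The cause of these shifts was not tested. The left-out and 2-group fits also hold fewer samples, and the part of that was not tested either. Same-numbered libraries of different groups correlated between -0.048 and 0.267 after group means were removed, and other pairs between -0.276 and 0.174. With 3 libraries per group, these values cannot show whether replicate numbers pair the libraries. With the replicate block, 62 members changed in untreated against normal folds, 0 in SOT against untreated folds and 19 in SOT against normal folds. Of the values of named members under alternatives, 1951 kept their side of the threshold, 180 lost and 27 gained a call. None reversed where the main fit or the alternative passed. Values that passed in neither fit were counted as kept whatever their direction. Depth limits LOC103346233, which was at 0 in the untreated libraries.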
